A study of Mus musculus with 8 samples.

Results

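The 8 oligoadenylate synthetase genes described here are Oas1a, Oas1b, Oas1c, Oas1g, Oas2, Oas3, Oasl1 and Oasl2, taken by symbol from the 34586 gene symbols of an RNA sequencing table of mouse tumors. Oas2 was picked because its level was lower after tamoxifen, and the other 7 are its relatives. The tumors grew in the cecum of C57BL/6 mice and model GIST, the stromal sarcoma of the gut that resembles its pacemaker cells. There were 4 tumors from the tamoxifen group and 4 from the vehicle group. All 8 came from mice with 1 activated copy of the receptor tyrosine kinase gene Kit (Kit V558Delta/+), loxP sites in both copies of Etv1 (Etv1 flox/flox) and, from the Rosa26 locus, the tamoxifen-activated recombinase CreERT2 (CreERT2/CreERT2). The vehicle tumors therefore carried the same alleles. The design compares tamoxifen, meant to ablate Etv1, an ETS transcription factor of this lineage, with vehicle. No group received tamoxifen without the floxed alleles or CreERT2. Effects of the drug, of the recombinase and of Etv1 loss therefore cannot be told apart. Rosa26 is active in most cell types, so recombination need not be limited to tumor cells, and it was not measured here. The sources used here give no age, dose or time point. Whether each tumor of a group came from its own animal is likewise not stated, and the p-values then reflect only how these libraries vary.

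Values are FPKM, which scales a gene's fragments by transcript length and by library size. Absolute depth is unknown. Each library held 14176 to 14841 symbols at 1 FPKM or more, and the median log2(FPKM + 1) of the tested genes did not separate the groups (exact 2-sided permutation p = 0.571). Etv1 itself measured 34.9, 19.7, 31.4 and 17.4 FPKM in tamoxifen tumors, against 34.6, 51.1, 40.4 and 38.6 FPKM in vehicle tumors. Its mean was 25.8 ± 8.60 FPKM in tamoxifen tumors and 41.2 ± 7.03 FPKM in vehicle tumors (SD, n = 4 each; log2 fold change -0.70, SE 0.24, limma adjusted p = 0.13). Tamoxifen replicate 1 lay just inside the vehicle range, so the targeted gene did not separate the groups in every tumor. These values cover the whole gene, and which exons lie between the loxP sites was not given. The lineage markers Kit, Ano1, Gpr20 and Etv1 were present in all 8 tumors. Their summed level was 888 to 1272 FPKM after tamoxifen and 1123 to 1670 FPKM after vehicle, and these ranges overlapped. All 4 markers had a negative log2 fold change, with a median of -0.73. It was -0.75 for Kit, -0.78 for Gpr20 and -0.27 for Ano1 (limma adjusted p = 0.067, 0.079 and 0.396). The part of the tumor cell share in the synthetase values was not tested.

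Oligoadenylate synthetases are enzymes of antiviral defense. Interferon raises their transcription through the transcription factor complex ISGF3, which binds a promoter element of repeated GAAA letters, the interferon-stimulated response element (ISRE). Once bound to double-stranded RNA, the active enzymes make short chains of adenylate called 2-5A, a second messenger that sets off the cutting of viral and cellular RNA. In mouse, Oas1a and Oas1g encode active small synthetases, Oas2 and Oas3 larger forms built of repeated synthetase units, and the Oasl genes synthetase-like proteins with ubiquitin-like domains.

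The genes lie on chromosome 5 in 2 clusters. In mm9, Oas2, Oas3, Oas1c, Oas1b, Oas1g and Oas1a lie in this order within 177 kb, from 121180342 to 121357536, with the paralogues Oas1e, Oas1f and Oas1h among them. Oasl2 and Oasl1 lie together within 41.0 kb, from 115346943 to 115387924. The RefSeq promoter table (GRCm38.p6) held 6 of the 8 genes, all but Oas1b and Oas2. The 250 bases before each start were searched on both strands for the core of the ISRE, spelled as GAAA, any 2 bases and GAAA again, which 2.98% of all 32851 promoters in the table hold. Oas1a, Oas1g, Oas1c and Oas3 held it, and Oasl1 and Oasl2 did not within this window. The last 120 bases before the start of these 4 genes are shown, in the direction of transcription and with the ISRE cores in capitals, because the 3 Oas1 genes carry the same stretch. They lie on the minus strand at chr5:120907526-120907645 (Oas1a), chr5:120887614-120887733 (Oas1g), chr5:120812515-120812634 (Oas1c) and chr5:120777660-120777779 (Oas3).
Oas1a: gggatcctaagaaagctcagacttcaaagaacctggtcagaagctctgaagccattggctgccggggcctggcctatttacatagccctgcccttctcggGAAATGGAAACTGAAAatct
Oas1g: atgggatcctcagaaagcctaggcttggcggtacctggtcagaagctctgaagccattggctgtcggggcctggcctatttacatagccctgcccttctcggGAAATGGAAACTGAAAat
Oas1c: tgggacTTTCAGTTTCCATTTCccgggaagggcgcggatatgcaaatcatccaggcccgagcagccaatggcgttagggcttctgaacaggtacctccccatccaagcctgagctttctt
Oas3: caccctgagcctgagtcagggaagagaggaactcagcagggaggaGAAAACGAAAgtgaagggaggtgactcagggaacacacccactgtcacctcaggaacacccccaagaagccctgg

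In Oas1a and Oas1g, 2 overlapping cores formed the 16-base run GAAATGGAAACTGAAA, from 20 to 5 bases before the Oas1a start and from 18 to 3 bases before the Oas1g start. Their 120-base windows were 88.5% identical. The Oas1c window held the reverse complement of the same 16 bases, from 114 to 99 bases before its own start. In the GENCODE M21 annotation of GRCm38, Oas1b runs the other way from Oas1c, and 120 bases separate their starts. Measured from Oas1b, the run in the window they share lies 22 to 7 bases before its start, in the same orientation and at about the same distance as in Oas1a and Oas1g. The double core, 3 GAAA with any 2 bases between them, occurred in 30 of the 32851 promoters (0.0913%). For the shorter GAS core TTCNNNGAA, a palindromic element of interferon-gamma response genes, only Oas1a had a match among the 6 genes, 98 bases before its start, against 7.02% of all promoters. A match is a description of the letters, and no binding was measured.

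Of the 7 relatives of Oas2, 3 fell after tamoxifen (Oas3, Oasl2 and Oas1g), none rose and 4 did not pass the threshold (Oas1a, Oas1b, Oasl1 and Oas1c). The threshold was a limma p under 0.05 after Benjamini-Hochberg adjustment over every tested gene, on log2(FPKM + 1). Among all 15023 tested genes, 3.07% fell and 2.38% rose. With every library scaled to the same total FPKM, limma called none of the 7, of which 4 had an unadjusted p under 0.05. All 8 synthetase genes passed the filter on low values, a mean of at least 1 FPKM, and each did so within both groups. Because the family was chosen from this same comparison, the count is a description. The median log2 fold change was -0.83 for the 7 relatives and -0.85 with Oas2 included, against 0.01 over all tested genes. These medians are descriptions too. No value separates fewer expressing cells from less RNA per cell in these bulk tumors.

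Markers of other cell types also differed between the groups. Of 11 T and NK cell markers 8 fell, and their summed level was 113 to 175 FPKM in tamoxifen tumors and 228 to 314 FPKM in vehicle tumors. Of 6 tested dendritic cell markers 3 fell, with a summed level over 7 markers of 10.9 to 16.9 FPKM in tamoxifen tumors and 24.8 to 35.7 FPKM in vehicle tumors. None of 9 macrophage markers passed (596 to 1310 FPKM after tamoxifen, 659 to 984 FPKM after vehicle). Of 6 tested neutrophil markers 4 rose (sum of 7 markers 180 to 472 FPKM after tamoxifen, 7.498 to 27.54 FPKM after vehicle). Of 8 epithelial markers 1 rose and all 8 had a positive fold change, with a summed level of 949 to 2300 FPKM in tamoxifen tumors and 472 to 759 FPKM in vehicle tumors. Of 5 endothelial markers 1 rose and all 5 had a positive fold change, with a summed level of 44.9 to 73.1 FPKM in tamoxifen tumors and 28.5 to 42.0 FPKM in vehicle tumors. The summed levels of both lists did not overlap between the groups. None of 5 B and plasma cell markers passed (95.6 to 142 FPKM after tamoxifen, 107 to 187 FPKM after vehicle), and none of 5 smooth muscle markers (243 to 303 FPKM after tamoxifen, 144 to 307 FPKM after vehicle). No marker of these lists was at 0 in all 8 libraries. The part of these cell types in the synthetase values was not tested.

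**Figure D1:**
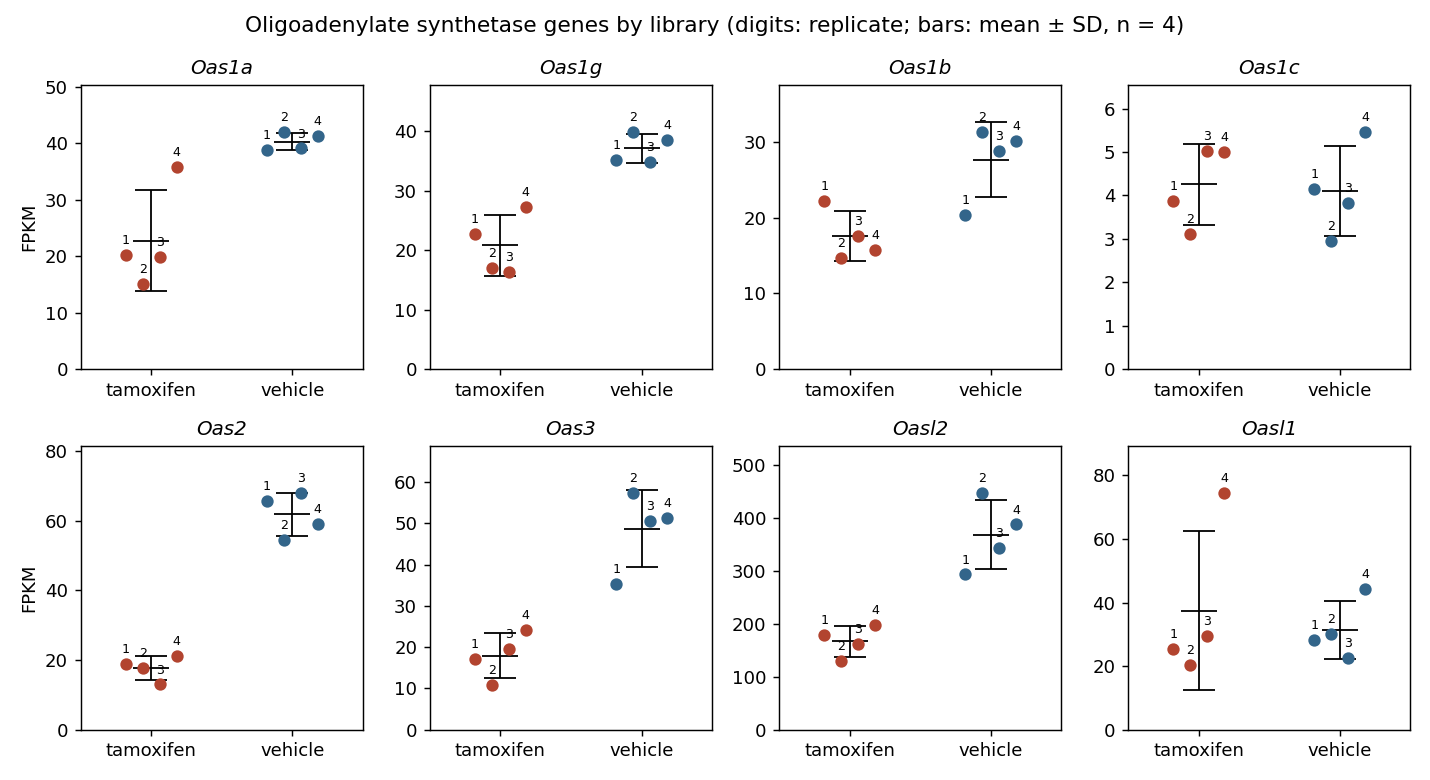
FPKM of the 8 synthetase genes in each library, tamoxifen tumors left and vehicle tumors right of each panel, with the replicate number above each point and the mean ± SD as bars (n = 4 each). The groups do not overlap for Oas2, Oas3, Oasl2, Oas1a and Oas1g, and overlap for Oas1b, Oas1c and Oasl1, where tamoxifen replicate 4 stands at 74.5 FPKM.

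Oas2, the gene picked for its lower level, measured 18.98, 17.75, 12.99 and 21.29 FPKM in tamoxifen replicates 1 to 4, against 65.8, 54.5, 68.0 and 59.1 FPKM in vehicle replicates 1 to 4. The highest tamoxifen tumor stayed far below the lowest vehicle tumor, and the mean was 71.3% lower (17.75 ± 3.496 FPKM after tamoxifen, 61.8 ± 6.19 FPKM after vehicle; SD, n = 4 each). No test is given for it.

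Oas3, the largest family member, measured 17.2, 10.9, 19.5 and 24.1 FPKM in tamoxifen tumors, against 35.4, 57.3, 50.7 and 51.3 FPKM in vehicle tumors. The groups did not overlap, which held in the lower direction for 7.74% of all tested genes. Oas3 fell to a mean of 17.9 ± 5.50 FPKM in tamoxifen tumors, against 48.7 ± 9.36 FPKM in vehicle tumors (n = 4 each; log2 fold change -1.42 with an SE of 0.24, adjusted p = 0.0178). The call was lost without vehicle replicates 2, 3 or 4 (adjusted p = 0.0572, 0.0586 and 0.0569).

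Oasl2, whose product in mouse keeps synthetase activity, was the most abundant family member per transcript length. It measured 178, 130, 161 and 198 FPKM in tamoxifen tumors, against 293, 447, 343 and 387 FPKM in vehicle tumors. Again no tamoxifen tumor reached the vehicle range. Oasl2 fell to 167 ± 28.9 FPKM after tamoxifen, against 368 ± 65.3 FPKM after vehicle (n = 4 each; log2 fold change -1.13 with an SE of 0.18, adjusted p = 0.0146), and it stayed past the threshold without any 1 of the 8 libraries (adjusted p up to 0.0496).

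Oas1g measured 22.7, 16.95, 16.3 and 27.2 FPKM in tamoxifen tumors, against 35.3, 39.9, 34.9 and 38.5 FPKM in vehicle tumors. The ranges were apart, and Oas1g fell by 0.83 on the log2 scale (SE 0.17, limma adjusted p = 0.0304). The call was lost in 5 of the 8 fits that left out 1 library, without tamoxifen replicate 2 (adjusted p = 0.0739) and without vehicle replicates 1 to 4 (0.0657, 0.0859, 0.0765 and 0.085). Oas1a measured 20.3, 15.1, 19.8 and 35.8 FPKM in tamoxifen tumors, against 38.8, 42.0, 39.1 and 41.3 FPKM in vehicle tumors. The ranges did not overlap either, but tamoxifen replicate 4 came close to the vehicle tumors, and Oas1a did not pass (log2 fold change -0.87, SE 0.23, adjusted p = 0.066). Of the fits that left out 1 library, Oas1a passed in that without tamoxifen replicate 4 (log2 fold change -1.10, adjusted p = 0.0136). It passed in none of the other 7 (adjusted p = 0.105 to 0.149).

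Oas1a and Oas1g are near copies, so their single values are uncertain. In GENCODE M21, 57.6% of all 50-base windows of the Oas1a transcript occur unchanged in another gene, mainly Oas1g, and 54.7% of the Oas1g windows occur in another gene, mainly Oas1a. Their transcripts were 90.6% identical, while 0% of the windows of Oas2, Oasl1 and Oasl2 were shared. The sum of both genes depends less on how such reads were split. It came to 43.5 ± 13.8 FPKM in tamoxifen tumors and 77.4 ± 4.00 FPKM in vehicle tumors (n = 4 each; log2 fold change -0.86 with an SE of 0.20, adjusted p = 0.0449), a sum chosen after the data were seen.

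Oas1b is the flavivirus resistance gene of mice. C57BL/6 and most other laboratory strains carry a truncated form, and RefSeq lists it on the C57BL/6J assembly as a transcribed pseudogene. Its RNA was nevertheless present at 22.2, 14.7, 17.5 and 15.7 FPKM in tamoxifen tumors, against 20.4, 31.3, 28.8 and 30.1 FPKM in vehicle tumors. Tamoxifen replicate 1 exceeded vehicle replicate 1, and the difference did not pass (log2 fold change -0.63, SE 0.18, adjusted p = 0.0778). Oas1c, its divergent neighbour, stood at 3.88, 3.12, 5.02 and 5.01 FPKM in tamoxifen tumors, against 4.14, 2.95, 3.82 and 5.45 FPKM in vehicle tumors. The groups overlapped throughout (log2 fold change 0.05, 95% interval -0.39 to 0.49, adjusted p = 0.904), and the sign turned negative in some of the alternative settings.

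Oasl1, which lacks synthetase activity and in mouse holds back the translation of Irf7, measured 25.4, 20.3, 29.5 and 74.5 FPKM in tamoxifen tumors, against 28.3, 30.03, 22.6 and 44.3 FPKM in vehicle tumors. Tamoxifen replicate 4 was the highest of all 8 libraries and the other 3 tamoxifen tumors lay within or below the vehicle range. The log2 fold change was 0.10 with a 95% interval of -0.78 to 0.98 (adjusted p = 0.903), and -0.29 without tamoxifen replicate 4. The same library had the highest summed level of 8 epithelial markers, 2300 FPKM, against 949 to 1202 FPKM in the other tamoxifen tumors. Vehicle tumors had 472 to 759 FPKM, with 701 FPKM in vehicle replicate 4, where Oasl1 was highest among them. Among tamoxifen tumors, replicate 4 also had the highest sums of neutrophil, dendritic cell, B and plasma cell and endothelial markers. The same held for interferon signalling genes (1092 FPKM) and other antiviral genes (1282 FPKM). It did not hold for T and NK cell, macrophage, smooth muscle and lineage markers or genes of 2-5A metabolism and nucleic acid sensing. The part of these in the Oasl1 value was not tested. The locus of Oasl1 overlaps that of Gm13822, at 1.45 FPKM on average, and whether reads were assigned by strand is not given.

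Within each library, each of the genes described was set against the next one of them along its cluster, for 5 pairs without Oas2. Oas1e lies between Oas3 and Oas1c, and Oas1f and Oas1h between Oas1b and Oas1g, so these 2 pairs are not direct neighbours. Oasl2 exceeded Oasl1 by 1.40 to 2.76 log2 units in tamoxifen tumors and by 3.10 to 3.86 log2 units in vehicle tumors, with no overlap (n = 4 each; mean difference between groups -1.23; exact 2-sided permutation p = 0.0286, the lower limit for 70 arrangements, or 0.0714 when adjusted over the 5 pairs). Oas3 exceeded Oas1c by 1.82 ± 0.23 log2 units in tamoxifen tumors and by 3.29 ± 0.47 log2 units in vehicle tumors (n = 4 each; exact permutation p = 0.0286, adjusted 0.0714). Oas1c lay below Oas1b. Oas1c minus Oas1b was -1.82 ± 0.34 log2 units in tamoxifen tumors and -2.50 ± 0.43 log2 units in vehicle tumors (n = 4 each; exact permutation p = 0.0571, adjusted 0.0952). The pairs Oas1b with Oas1g and Oas1g with Oas1a gave exact permutation p of 0.371 and 0.771. Oas1g and Oas1a are near copies, so the split of shared reads bears on their difference. The pairs were chosen after their values were seen. None of the 5 pairs passed 0.05 after adjustment.

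**Figure D2:**
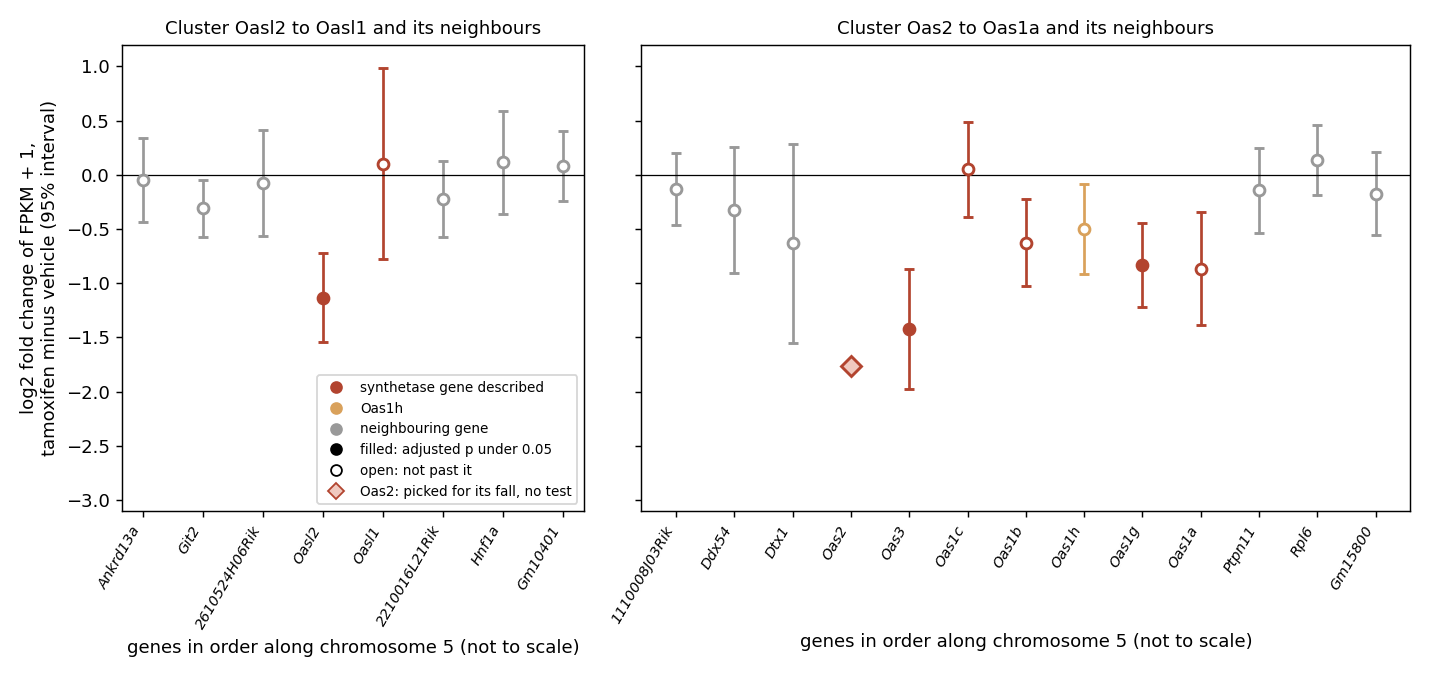
Log2 fold change of FPKM + 1, tamoxifen minus vehicle, with 95% intervals, for the synthetase genes, Oas1h and the 3 nearest tested genes on each side, in order along chromosome 5. Filled points are past an adjusted p of 0.05, the diamond is Oas2, and the 12 neighbours, all open, lie between -0.63 (Dtx1) and 0.14 (Rpl6).

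The nearest tested genes around the clusters did not pass the threshold. Some lie far off, and those beyond Oas1a are 223006 (Ptpn11) to 312692 bases (Gm15800) away. The 3 nearest tested genes on each side of each cluster had log2 fold changes of -0.63 (Dtx1, 18406 bases from Oas2) to 0.14 (Rpl6), with adjusted p of 0.154 or more. Other Oas1 paralogues were barely present. Oas1h, the only one tested, averaged 0.722 ± 0.281 FPKM in tamoxifen tumors and 1.43 ± 0.305 FPKM in vehicle tumors (adjusted p = 0.152, n = 4 each), and Oas1d, Oas1e and Oas1f stayed at or below 0.133 FPKM in every library.

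The order of levels per transcript length differed between the groups below the first rank. In tamoxifen tumors Oasl2 stood first, followed by Oasl1, Oas1a, Oas1g, Oas3, Oas2 and Oas1b with means of 37.4 down to 17.5 FPKM, each overlapping the next, and Oas1c came last at 4.26 FPKM. In vehicle tumors Oasl2 was followed by Oas2, Oas3, Oas1a, Oas1g, Oasl1 and Oas1b, with means of 61.8 down to 27.7 FPKM, again each overlapping the next, and Oas1c came last at 4.09 FPKM. Oas2 was thus sixth in tamoxifen tumors and second in vehicle tumors, a shift that follows from the value it was picked for.

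**Figure D3:**
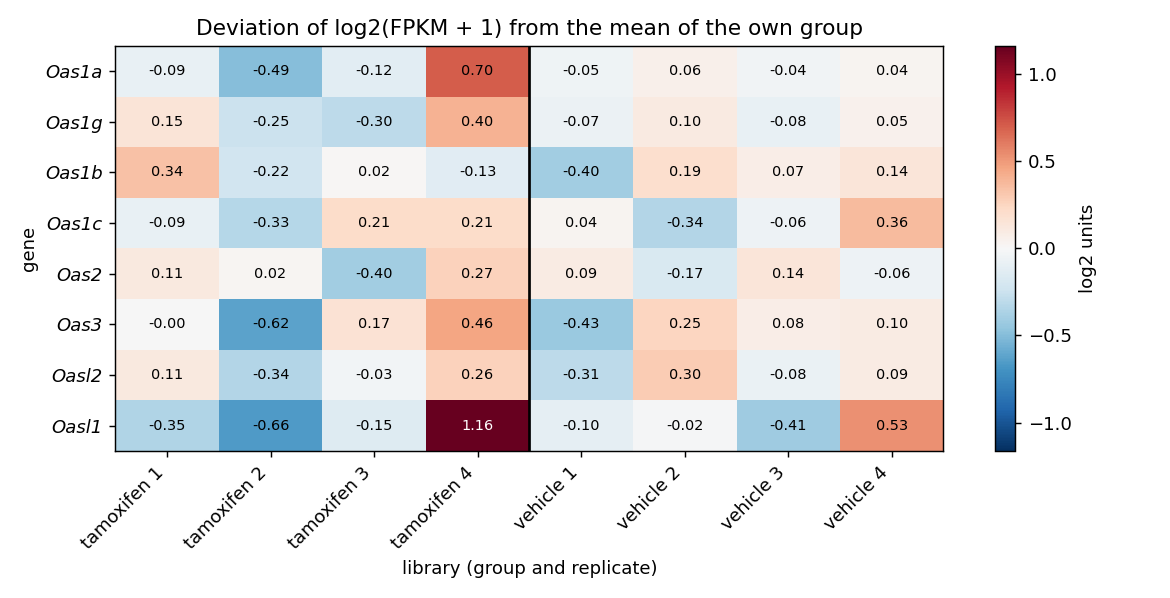
Deviation of log2(FPKM + 1) of each synthetase gene from the mean of its own group, in log2 units, for each tamoxifen library (left of the line) and each vehicle library. Tamoxifen replicate 4 is above its group mean for every gene but Oas1b, up to 1.16 for Oasl1, and tamoxifen replicate 2 is below it for every gene but Oas2.

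Within groups the genes did not all vary together. After the group means were removed, Oas3 and Oasl2 had a correlation of 0.90 over the 8 libraries, Oas1a and Oasl1 0.91 and Oas1a and Oas1g 0.84. In tamoxifen replicate 4 alone, Oas1a and Oasl1 deviated by 0.70 and 1.16 log2 units. Oas1a and Oas1g are near copies, so the split of shared reads bears on their correlation. The correlations of Oas2 with its relatives were 0.60 with Oas1g, 0.40 with Oas1a, 0.26 with Oasl1, -0.02 with Oasl2, -0.03 with Oas1c, -0.07 with Oas3 and -0.22 with Oas1b. These are descriptions over few libraries that share depth and tissue content within each library. The 5 genes outside the family whose deviations were most like those of Oas2 were Gm10012, Cdkn2aipnl, Upk3b, Lrrn4 and 4632434I11Rik (correlation 0.978 down to 0.926 over 8 libraries), and none of them passed the threshold between groups (adjusted p 0.519 to 0.869).

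The identifiers of the tumors fall into a lower and a higher number range, which the labels do not explain. In the lower range (2 tamoxifen and 3 vehicle tumors) the mean log2 difference was -1.70 for Oas3, -1.22 for Oasl2 and -0.87 for Oas1g. In the higher range (2 tamoxifen tumors and 1 vehicle tumor) it was -1.21, -1.11 and -0.84 for the same genes. The direction was thus shared for these genes, which were the relatives past the threshold. Of the other relatives, Oas1a, Oas1b and Oas1c had a negative difference in both ranges. Oasl1 changed sign, from -0.23 in the lower range to 0.08 in the higher range.

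The genes for 2-5A breakdown did not pass the threshold. Pde12 and Akap7, phosphodiesterases that break down 2-5A, and Abce1, an ATP-binding protein of ribosome recycling, had log2 fold changes of 0.15, 0.39 and -0.02 (adjusted p = 0.499, 0.405 and 0.956).

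Some but not all sensors of double-stranded RNA fell, as did the adaptors Mavs and Tmem173. Of 11 genes of 2-5A metabolism and nucleic acid sensing, 5 fell, none rose and 6 did not pass, and the median of their log2 fold changes was -0.74. The RIG-I-like receptor genes Ddx58 and Dhx58 fell to 48.7 ± 6.22 and 19.8 ± 5.10 FPKM after tamoxifen, against 111 ± 22.2 and 46.7 ± 7.44 FPKM after vehicle (adjusted p = 0.0118 and 0.0153). The third such receptor gene, Ifih1, measured 28.7 ± 4.93 FPKM after tamoxifen and 54.6 ± 16.4 FPKM after vehicle (adjusted p = 0.0593). The mitochondrial adaptor Mavs and the DNA-sensing adaptor Tmem173, known as STING, fell with log2 fold changes of -0.92 and -1.16 (adjusted p = 0.0158 and 0.0191). Adar, which edits double-stranded RNA, fell by 0.74 on the log2 scale (adjusted p = 0.0471), and of the fits that left out 1 library it passed in that without tamoxifen replicate 4 (0.0299) and in none of the other 7 (0.0567 to 0.13). Eif2ak2, the kinase PKR, did not pass (log2 fold change -0.60, adjusted p = 0.139).

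Stat2 and Irf9, which encode subunits of ISGF3, fell as well. Of 20 interferon receptor and signalling genes, 5 fell, none rose and 15 did not pass (median log2 fold change -0.32). Stat2 measured 38.2 ± 8.94 FPKM after tamoxifen and 71.2 ± 7.25 FPKM after vehicle (adjusted p = 0.0247). Irf9 measured 42.4 ± 5.17 FPKM after tamoxifen and 78.8 ± 4.07 FPKM after vehicle (adjusted p = 0.00882). Irf7, the interferon-inducible factor whose translation Oasl1 restrains, had a log2 fold change of -1.72 (adjusted p = 0.0134). Among the receptors, Ifnar2 of the type I interferon receptor fell by 0.45 on the log2 scale (adjusted p = 0.0464), a call lost in each of the 8 fits that left out 1 library. Stat2 lost its call in 5 of those 8 fits, those without tamoxifen replicates 1 or 2 or vehicle replicates 2, 3 or 4 (adjusted p = 0.0563 to 0.0777). Of 18 interferon ligand genes in the table none reached the filter. Ifng was the highest, at 0.570 ± 0.313 FPKM in tamoxifen tumors and 1.03 ± 0.334 FPKM in vehicle tumors, and 10 ligand genes were listed at 0 in all 8 libraries.

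**Figure D4:**
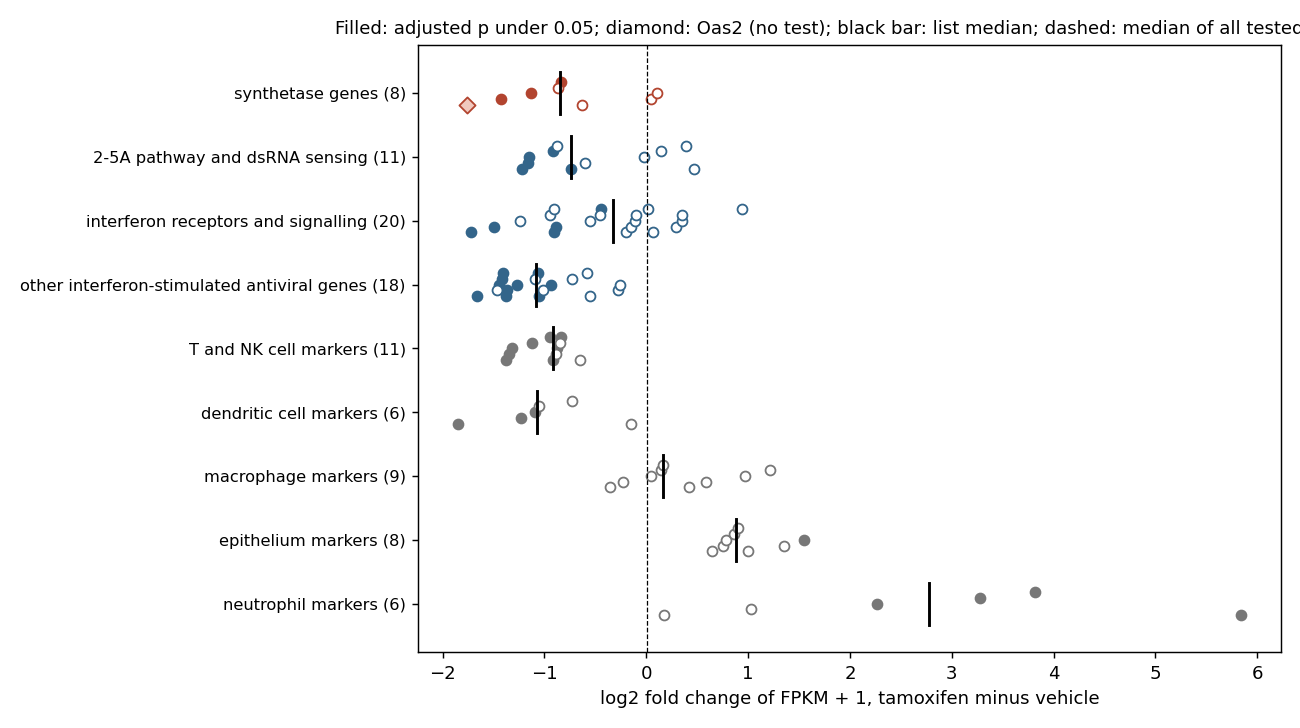
Log2 fold change of FPKM + 1, tamoxifen minus vehicle, for each tested gene of the synthetase family, of 3 interferon-related lists and of 5 cell type marker lists (number of genes in parentheses). Filled points are past an adjusted p of 0.05, and the diamond is Oas2. The black bars, the list medians, lie at -0.85 for the synthetase genes with Oas2 included and at 2.77 for neutrophil markers.

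Of 18 other interferon-stimulated antiviral genes, 10 fell, none rose and 8 did not pass, and their median log2 fold change was -1.08. With total FPKM scaling, 2 of the 49 tested genes of these 3 interferon-related lists were called, against 20. The antiviral genes with the smallest p were Xaf1, Zbp1, Ifi44 and Samhd1, with log2 fold changes of -1.42, -1.66, -1.41 and -0.94 (adjusted p = 0.0106, 0.0118, 0.0122 and 0.013). Zbp1 is a sensor of double-stranded nucleic acid in the Z form, and Samhd1 depletes the nucleotides that viruses need.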

How the data were processed

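Groups and replicate numbers of the 8 sequenced cecal tumors follow the sample titles. According to the labels' protocols, RNA was purified from tumors homogenized in Trizol and libraries followed standard Illumina protocols. The authors' deposited table gives gene-level FPKM with a status per value, and STAR 2.3, Cufflinks, Cuffdiff and mm9 are named, per the submitters' processing notes. The sources used here do not give their roles, the annotation, the scaling, the strandedness or how multiply mapped reads were handled. All 8 libraries were matched by the identifier in the sample description.

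Failed estimates (178 values, none in the synthetase genes) were treated as missing and rows summed per symbol. Genes with a mean of at least 1 FPKM and at least 2 estimates per group, 15023 in all, were compared on log2(FPKM + 1) with limma 3.58.1 in R 4.3.3 (mean-variance trend, 2-sided, Benjamini-Hochberg adjustment over all tested genes, threshold 0.05). This scale understates the change of low genes. Adjusted p are from limma unless named otherwise. Single values were compared by exact permutation over 70 arrangements. The procedure was tested on simulated data, with an outcome not reported here. Those values were drawn independently for each gene and library, so effects shared across a library were not covered. The genes and lists were chosen with earlier results of these data known, and the pairs of synthetase genes after their values were seen. The named genes were Etv1, the family, all genes of the 2-5A list, those of the other interferon lists past the threshold (or the 4 with the smallest p), the 3 nearest tested neighbours with 1 row in the table on each side, and the 5 genes most like Oas2. Single values of some genes of these lists are not reported here, though the counts and medians include them. Promoter and transcript sequences come from RefSeq (GRCm38.p6) and GENCODE M21 (GRCm38), and loci from the deposited table (mm9). Alternatives were other pseudocounts, filters, scalings and limma settings, a replicate block, the identifier range as a covariate, and leaving out each library.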

Additional observations from a re-analysis of the deposited data

Results flagged for a closer look

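One value among the synthetase genes stood apart from its own group. Oasl1 measured 74.5 FPKM in tamoxifen replicate 4, and its gap to the next tamoxifen tumor took up 0.831 of the range of that group, just above Dixon's 95% critical value for 4 samples. A total of 16 groups of 4 were examined, and chance flags about 1 in 20 groups.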

How the results depend on the processing

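The fall of Oas3, Oasl2 and Oas1g kept its direction in every alternative run, and the count of 3 depended on some of them. With every library scaled to the same total FPKM, limma called 0 of the 7 relatives of Oas2 (4 at an unadjusted p under 0.05), 2 pathway genes against 20, and 229 genes in all against 819 (154 higher and 75 lower, against 358 higher and 461 lower). Oasl2 then changed by -1.07 with an SE of 0.32, and the median of all tested genes by 0.06. With the replicate block the limma counts were 0 relatives (5 at an unadjusted p under 0.05), 8 pathway genes and 252 genes in all. Same-numbered tumors had correlations of their deviations of -0.16 to 0.14, and differently numbered tumors of -0.145 to 0.151. Over so few libraries these values cannot decide whether the replicate numbers pair the samples. Library quality weights called 5 relatives, adding Oas1a and Oas1b. A mean of at least 5 FPKM left 534 genes called and kept Oas1c out of the test. Leaving out 1 library gave 1 to 4 relatives, 13 to 20 pathway genes and 268 to 856 genes in all. The lowest count of relatives, 1, came without vehicle replicates 2, 3 or 4, and the lowest of pathway genes, 13, without vehicle replicate 2. The count of all genes was 544 without tamoxifen replicate 1, 378 without tamoxifen replicate 2, and 450, 288, 268 and 274 without vehicle replicates 1 to 4.

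Signs turned for 7 named genes, none of which had passed. Oas1c was -0.0632 with the identifier covariate, -0.0497 with quality weights and -0.0650 to 0.171 without 1 library. Oasl1 was -0.12 with the covariate and -0.29 to 0.32 without 1 library. Abce1 was 0.0386 with total scaling, 0.0592 with the covariate and -0.13 to 0.0720 without 1 library. Ankrd13a was 0.00957 with total scaling and -0.20 to 0.0837 without 1 library. Gm10012 was -0.00779 with a pseudocount of 0.1 FPKM and -0.0966 to 0.739 without 1 library. Without 1 library, 2610524H06Rik spanned -0.264 to 0.0979 and Lrrn4 -0.0914 to 0.332. The cause of these shifts was not tested. Depth is unknown, so its limit on precision cannot be given.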
